A study of Mus musculus with 2 samples.

Results

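Metallothioneins are small, cysteine-rich proteins that bind zinc and copper, and together with zinc transporters they set how much free zinc a liver cell holds. The genes described here were the 4 metallothionein genes Mt1, Mt2, Mt3 and Mt4, the zinc-sensing transcription factor gene Mtf1, the zinc and manganese exporter genes Slc30a1 and Slc30a10, and the importer genes Slc39a14 and Slc39a8. These are 9 of the 21938 protein-coding genes of GENCODE mouse release M21. They were chosen by name, and every EP300 peak whose summit lay within 50 kb of any annotated transcription start site (TSS) of 1 of them was taken, which gave 38 distinct summits of the 26844 analysed.

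EP300 was profiled by chromatin immunoprecipitation sequencing (ChIP-seq) in whole liver of newborn B6NCrl mice, age 0 days, sex not collected, in 1 group of 2 replicates with no treatment or genotype named in the labels. The labels number the replicates as biological replicates 1 and 2. They also give both a shared biosample and a shared donor, so the spread between them may be technical. Whether that donor is 1 animal or pooled animals is not stated. The authors' optimal list, made from both replicates with the irreproducible discovery rate (IDR), was the main list, and its signal value is a score per peak with no stated scale, read only within a list. The lists hold no read counts, so the depth of each replicate is unknown.

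EP300 is a histone acetyltransferase that transcription factors bring to active promoters and enhancers. When zinc rises, MTF1, the protein of Mtf1, binds metal response elements (MREs) upstream of Mt1, Mt2 and Slc30a1. Mt1 and Mt2 are the metallothioneins of most tissues and are known to be abundant in the liver around birth, whereas Mt3 is known from brain and Mt4 from stratified squamous epithelium. SLC30A1 carries zinc out of cells, SLC30A10 carries mainly manganese out of cells, and SLC39A14 and SLC39A8 bring zinc, manganese and other metals in.

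Newborn liver holds blood-forming cells beside hepatocytes, and the peaks lay near the marker genes of both. A summit lay within 10 kb of a TSS for 5 of 6 hepatocyte markers, 6 of 6 erythroid markers and 1 of 5 brain and neuron markers, against 41.0% of all protein-coding genes. Within 50 kb the brain and neuron markers numbered 3 of 5, against 65.9% of all genes. The median of the strongest summits within 50 kb was 314 for erythroid markers and 79.1 for hepatocyte markers. Over brain and neuron markers with a summit it was 50.1, and over all protein-coding genes with a summit it was 68.3. A peak in whole tissue cannot be assigned to either cell type, and a higher share of the cells that carry a peak cannot be told apart from more binding per cell.

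The sequences on which the results turn are those upstream of Mt1 and Mt2, where MREs are known to lie. They are written 5′ to 3′ on the plus strand of mm10 (GRCm38), the strand of both genes, with capitals for the MRE core (TGCACNC or TGCGCNC) and for GATA forms (AGATAA or AGATAG, or either with T as its first base), on either strand. Each is the window of 250 bases that ends just before the gene's first annotated TSS, chr8:94178832-94179081 for Mt1 and chr8:94172414-94172663 for Mt2.
Mt1 upstream: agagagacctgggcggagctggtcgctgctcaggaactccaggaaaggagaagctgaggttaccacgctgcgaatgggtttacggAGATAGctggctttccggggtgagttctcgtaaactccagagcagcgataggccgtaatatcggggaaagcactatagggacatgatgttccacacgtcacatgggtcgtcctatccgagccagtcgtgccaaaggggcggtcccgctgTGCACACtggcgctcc
Mt2 upstream: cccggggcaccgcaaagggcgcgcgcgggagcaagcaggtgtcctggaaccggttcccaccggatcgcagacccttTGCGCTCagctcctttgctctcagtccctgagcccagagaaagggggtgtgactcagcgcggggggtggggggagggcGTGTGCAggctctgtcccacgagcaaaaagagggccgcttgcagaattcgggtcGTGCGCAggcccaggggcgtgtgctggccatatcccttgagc

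The Mt1 window held 1 MRE core and 1 GATA form, and the Mt2 window held 3 MRE cores. Mt1 has further starts at 94179211 and 94179241, and upstream of each of these the 250 bases held 5 MRE cores, a number reached by 0.104% of the 93462 annotated starts of protein-coding genes. The Mt2 start at 94172860 had 4 cores (0.339% of starts had as many), and 23.4% of all starts had 1 or more. The 5 cores of Mt1 are shown with 5 bases on each side, named by how far upstream of the start at 94179211 the core begins, and they lie between chr8:94179061 and 94179198.
Mt1 core 145 bases upstream: cgctgTGCACACtggcg
Mt1 core 120 bases upstream: agctcTGCACTCcgccc
Mt1 core 102 bases upstream: aaaagTGCGCTCggctc
Mt1 core 38 bases upstream: ctgctGGGTGCAaaccc
Mt1 core 24 bases upstream: cccttTGCGCCCggact

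The core farthest upstream is the one also capitalised in the longer Mt1 window. A match to these letters is a description of the sequence and not a bound site.

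All 9 genes had at least 1 EP300 summit within 50 kb of a TSS, against 65.9% of all protein-coding genes, so 0 of them had none. Within 10 kb 7 of 9 had a summit (77.8%, against 41.0% of all genes), and the 2 without were Mt3 and Mt4. Within 1 kb 4 of 9 had a summit (44.4%, against 23.8% of all genes): Mt1, Mt2, Mtf1 and Slc30a10. The metallothionein genes are neighbours and share peaks, so these counts are not over independent genes.

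The 38 summits had signal values from 12.0 to 239 with a median of 57.4, and the 26844 summits of the whole list had values from 7.32 to 633 with a median of 38.3. Above the list's median stood 28 of the 38. Among the strongest 10% of the list stood 7 (18.4%), and 5 stood among the weakest 10%. By place, 10 summits were in promoters (within 1 kb of a protein-coding TSS), which is 26.3%, against 23.4% of all summits. An exon held 1 (2.63%, against 2.97%), 8 were in introns and the others were intergenic. Between genes lay 19 of the 38, against 36.1% of all summits, and in introns 21.1%, against 37.5%. For 31 summits the nearest protein-coding TSS was that of 1 of the 9 genes, and for the other 7 it was that of Inpp5b (5 summits), Bbs2 (1) or Nup93 (1).

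**Figure D1:**
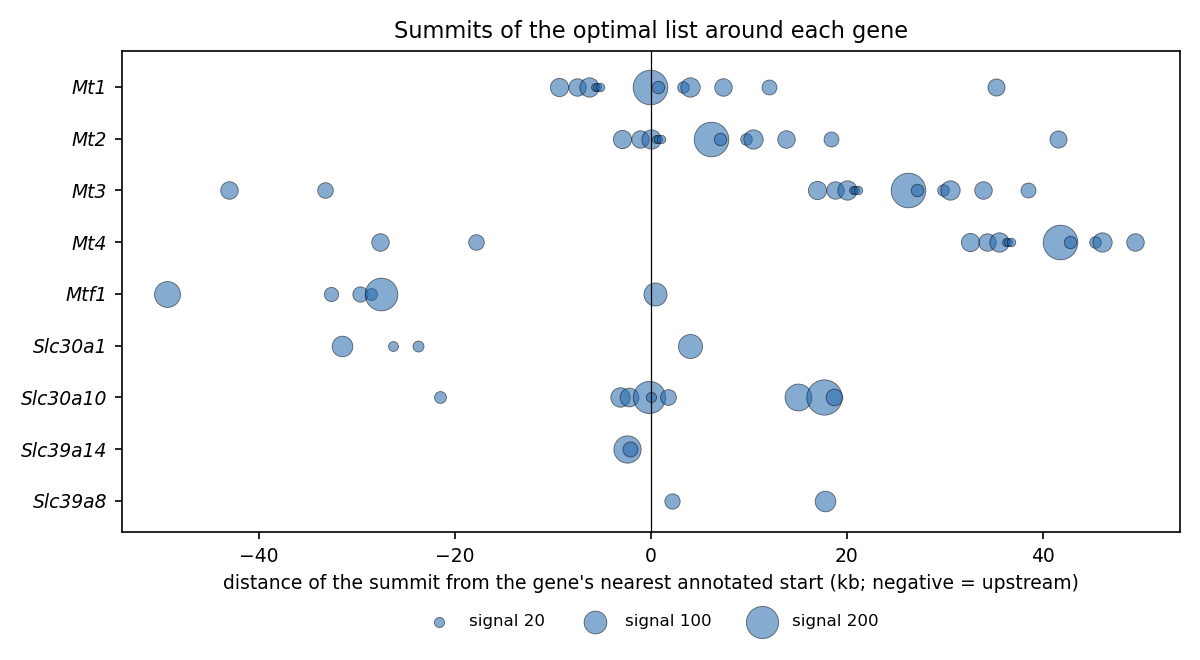
Each circle is 1 summit of the optimal list, placed by its distance in kb from the nearest annotated start of the gene named on the vertical axis (negative is upstream), with an area that grows with the signal value. Mt1 to Mt4 share 11 of their 15 peaks, which appear at shifted distances, Mt3 and Mt4 have none within 10 kb, and the largest circles are those of Slc30a10 (239), the Mt1 promoter (230) and Mtf1 (205).

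The metallothionein genes lie in the order Mt4, Mt3, Mt2, Mt1 on the plus strand of chromosome 8, with the first TSS of Mt4 41.9 kb from that of Mt1. Around them lay 15 summits, of which 11 (73.3%) were within 50 kb of all 4 genes, 1 was within reach of Mt1, Mt2 and Mt3, and 3 were within reach of 2 genes each. Mt3 counted 14 summits and Mt1, Mt2 and Mt4 counted 13 each. Of all protein-coding genes 1.47% had 13 or more, and the median over them was 2.0. The 11 shared summits had signal values from 12.0 to 230 with a median of 58.5 and spanned 16.9 kb at the Mt2 and Mt1 end, so what Mt3 and Mt4 share with their neighbours lies 17.0 kb or more from their own starts.

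The strongest peak of the cluster stood at the promoter of Mt1 (ENSMUSG00000031765.8, chromosome 8, 94179082 to 94180327). It covered 94178870 to 94179095 with its summit at 94178995, and its signal value was 230, rank 929 of 26844. The peak was at 150 in replicate 1 (rank 878) and at 83.6 in replicate 2 (rank 955), so it stood at a like rank in both lists of about 300000 peaks. Its summit lay 87 bases upstream of the first TSS and 216 and 246 bases upstream of the later starts, inside the Mt1 window printed above. No MRE core or GATA form lay within 50 bases of that summit, and the 5 cores printed above all lie downstream of it. The peak itself did cover the farthest upstream of these cores (94179066 to 94179072) and the GATA form of the Mt1 window. In replicate 1 the matched summit was at 94179022, and that core lay within 50 bases of it.

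The conservative IDR list held a further peak there, absent from the optimal list as a peak of its own. Its summit at 94179194 had a signal value of 81.5 and lay 17 and 47 bases upstream of the later Mt1 starts, beside the MRE core that begins 24 bases upstream of 94179211. It overlapped the peak of 230 and the same peaks of both replicate lists. Within the Mt1 gene, a weaker peak in coding exon sequence (summit 94179965) had 29.7, with 18.2 in replicate 1 and 7.31 in replicate 2.

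At Mt2 (ENSMUSG00000031762.7, 94172664 to 94173568) the promoter peak had its summit at 94172734, which was 70 bases downstream of the first TSS and 126 bases upstream of the other. The signal value was 72.0 (rank 5649), with 52.5 in replicate 1 and 35.6 in replicate 2. The 101 bases centred on this summit held 2 MRE cores. The matched summit of replicate 2 was at 94172735. In replicate 1 the peak overlapped 2 peaks, and the highest had its summit at 94172603, 131 bases upstream and outside those 101 bases. The promoter peak of Mt2 was thus lower than that of Mt1 in the optimal list and in each replicate list. Upstream of Mt2 lay a peak of 58.5 at 1.12 kb (46.5 and 15.7 in replicates 1 and 2) and a peak of 64.2 at 2.92 kb (43.8 and 20.2).

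From the coding sequence of Mt2 to just past the gene lay a chain of 3 overlapping weak peaks. The summit of the first (12.0) lay in the gene, and those of the other two (12.4 and 13.8) lay past its end. Each overlapped more than 1 peak of replicate 1, and the highest was the same for all 3 (8.03, rank 79547). In replicate 2 their highest matches had 5.87 and 7.93. None of the 3 was in the conservative list. They count as 3 of the 11 shared summits, but their highest matches were not 3 separate peaks in either replicate.

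Downstream of the starts of Mt1 lay 4 more peaks, between protein-coding genes. At 3.34 kb a peak had 25.9, lower in replicate 1 (8.79) than in replicate 2 (14.4), and it was not in the conservative list. At 4.06 kb (summit 94183298, over the predicted gene Gm39228) the value was 72.0, with 44.9 and 23.6 in replicates 1 and 2. At 7.43 kb (summit 94186670) it was 59.0, with 45.7 and 16.3, and at 12.0 kb it was 42.7, with 29.7 and 13.3. The peak at 4.06 kb was thus level with the Mt2 promoter peak in the optimal list. Peaks at 4.06 and 7.43 kb are printed because they held more MRE cores around the summit than the other peaks of the cluster, at chr8:94183248-94183348 and chr8:94186620-94186720 on the plus strand, with capitals as before.
Mt cluster, 4.06 kb downstream of Mt1: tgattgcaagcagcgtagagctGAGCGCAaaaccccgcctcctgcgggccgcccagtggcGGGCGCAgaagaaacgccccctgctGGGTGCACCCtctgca
Mt cluster, 7.43 kb downstream of Mt1: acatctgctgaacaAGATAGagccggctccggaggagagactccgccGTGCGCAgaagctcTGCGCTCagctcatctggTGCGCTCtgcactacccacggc

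The first of these held 4 core matches, of which the last pair overlap because that stretch reads as a core on both strands, and its GC content was 67.3%. The second held 3 cores and 1 GATA form, with a GC content of 62.4%. The median GC content was 51.0% over the 38 windows and 47.5% over all windows of the list. MRE cores hold several G and C bases, and the part that base composition plays in these counts was not tested.

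Counted as a run in which neighbouring summits are no more than 12 kb apart, the peaks at Mt2 and Mt1 formed a run of 12 over 21.5 kb. Of 14790 such runs in the list, 34 (0.230%) had 12 or more peaks, and by summed signal value (692) it ranked 183. The run includes the chain of weak overlapping peaks at Mt2, whose highest matches were not all separate peaks in either replicate. Slc30a10 had the next largest number among the 9 genes, with 5 peaks in 1 run.

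**Figure D2:**
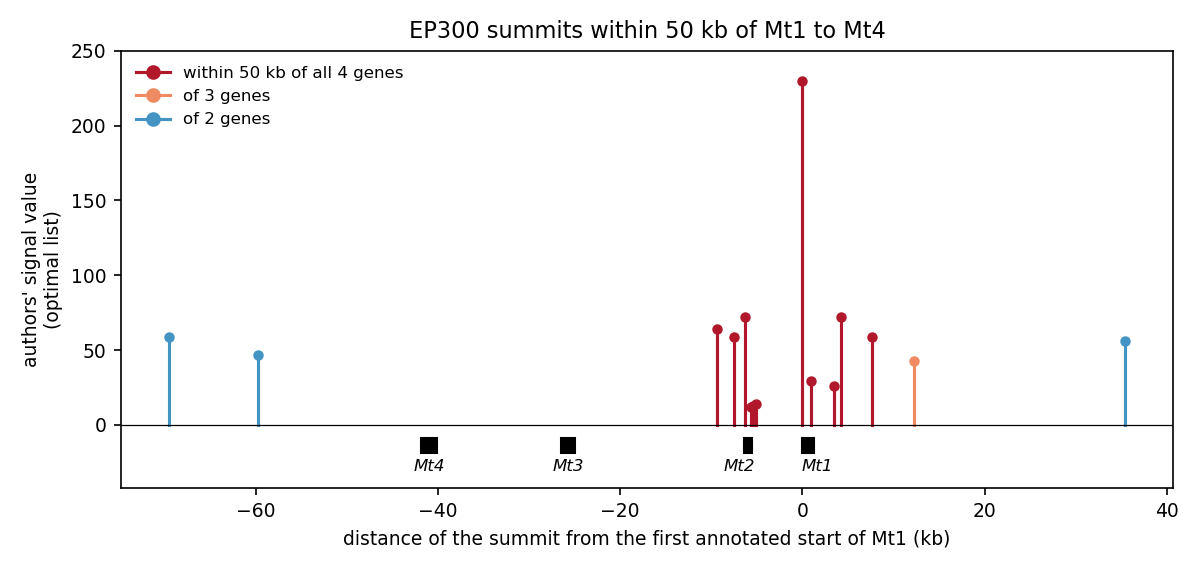
The vertical axis is the authors' signal value of each summit in the optimal list, and the horizontal axis is its distance in kb from the first annotated start of Mt1. Black boxes mark the 4 genes and colours tell how many of them have the summit within 50 kb. The peak of 230 stands at the Mt1 start, and no summit lies over Mt4 or Mt3 or in the gap of 50.4 kb around them.

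Mt3 (ENSMUSG00000031760.9, 94152607 to 94154146) and Mt4 (ENSMUSG00000031757.7, 94137197 to 94139031) lay in a stretch of 50.4 kb with no summit, between 94119320 and 94169749. Their nearest summits were 17.0 kb away for Mt3 (signal value 64.2, upstream of Mt2) and 17.9 kb away for Mt4 (46.7, with 32.7 and 14.2 in replicates 1 and 2). The unthresholded replicate lists held 0 peaks within 1 kb of a start of either gene. Within 10 kb replicate 1 listed 0 for each gene, and replicate 2 listed 3 for each, the strongest at 4.88 near Mt3 (rank 110357) and 4.29 near Mt4 (rank 163938). These windows overlap, and the peak of 4.29 (summit 94145118) counts for both genes. The list called on both replicates together held 1 peak near Mt3 (8.13, rank 221124, summit 94151179) and 0 near Mt4. The promoters of Mt3 and Mt4 were thus without an EP300 peak in lists that reach far below the IDR threshold, in the same libraries in which those of Mt1 and Mt2 had one.

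The sequence upstream of Mt3 and Mt4 was not empty of MRE cores. The Mt4 start had 1 core in the 250 bases upstream, a number reached by 23.4% of all starts. Of the Mt3 starts the one at 94152607 had 0 and the one at 94152746 had 3, which 1.51% of all starts reached. On the far side of Mt4 lay the peak of 46.7 and, 27.6 kb upstream, a peak of 59.1 (39.5 and 21.2 in replicates 1 and 2) whose nearest gene was Bbs2, a component of the ciliary BBSome. At the other end, 1 peak within reach of Mt1 and Mt2 stood at the promoter of Nup93, a nuclear pore gene, with 56.2 (38.2 and 13.0).

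Mtf1 (ENSMUSG00000028890.13, chromosome 4, 124802104 to 124849800, plus strand) had 6 summits within 50 kb, a number reached by 16.2% of protein-coding genes. Its own promoter peak had its summit at 124803083, in a UTR exon 405 bases downstream of the nearest start. The signal value was 102 (rank 3473), with 74.3 in replicate 1 and 27.7 in replicate 2. No MRE core or GATA form lay within 50 bases of that summit, and 0 MRE cores lay in the 250 bases upstream of any of its 4 starts.

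The other 5 summits lay upstream of Mtf1 in Inpp5b, an inositol polyphosphate 5-phosphatase gene that is the nearer gene for each. The strongest had its summit at 124774627, 27.5 kb upstream of Mtf1 in an Inpp5b intron, with 205 (rank 1173), 137 in replicate 1 and 68.2 in replicate 2. Another intron peak 49.4 kb upstream had 129 (90.6 and 41.2). A peak of 38.9 (21.8 and 16.1) lay 108 bases downstream of an internal start of Inpp5b, and the remaining intron peaks had 44.9 and 27.8. The peak of 27.8 was 9.53 in replicate 1 and 16.2 in replicate 2, and its window was the 1 of the 6 with an MRE core. Which gene these peaks act on was not measured.

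Slc30a10 (ENSMUSG00000026614.6, chromosome 1, 185454848 to 185468762, plus strand) had 9 summits within 50 kb, a number reached by 6.10% of genes, and it was the nearest protein-coding gene for all 9. The strongest of the 38 summits was among them, at 185472579, 17.7 kb downstream of the start and past the end of the gene. Its signal value was 239 (rank 858), with 160 in replicate 1 (rank 757) and 85.0 in replicate 2 (rank 929). Beside it lay peaks of 139 (15.0 kb downstream; 89.7 and 49.7 in replicates 1 and 2) and 53.9 (18.7 kb downstream; 32.8 and 19.7).

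The promoter peak of Slc30a10 had its summit 198 bases upstream of the start with 200 (rank 1215), 138 in replicate 1 and 62.6 in replicate 2. The weakest of the 9 peaks, with its summit 17 bases downstream of the start, had the same highest match in each replicate. In replicate 1 it overlapped 2 peaks and the highest was used, so no separate replicate value is given for it. Peaks of 67.7 and 72.5 lay 2.21 and 3.15 kb upstream, 47.6 lay in an intron and 27.2 lay 21.5 kb upstream. The summits of 200, 67.7 and 72.5 and that of the weakest peak also lay over Gm2061. That of 27.2 lay over 9630028B13Rik, and neither gene is annotated as protein-coding. Slc30a10 thus had a strong peak at its promoter and another past its end, whereas the strongest peak of Mtf1 lay in a neighbouring gene.

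Slc30a1 (ENSMUSG00000037434.7, chromosome 1, 191906767 to 191913247, plus strand) had 4 summits within 50 kb. The strongest lay in its UTR exon 3.99 kb downstream of the nearest start, with 111 (rank 3056), 84.7 in replicate 1 and 28.4 in replicate 2. The other 3 lay 23.8 to 31.5 kb upstream, with 81.9 (49.9 and 31.4), 23.4 (14.2 and 5.88) and 18.7 (9.86 in replicate 1 and slightly more in replicate 2). The 2 weakest were not in the conservative list.

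Slc30a1 is a known target of MTF1, and the optimal list held no summit within 1 kb of its starts. The strongest peak there was 12.0 in replicate 1 (rank 37272) and 4.93 in replicate 2 (rank 106945). Each of its starts had 1 MRE core in the 250 bases upstream, a number reached by 23.4% of all starts. In the RefSeq promoter windows of 300 bases (GRCm38.p6), Slc30a1 had 2 cores, Mt1 and Slc30a10 had 3 each, and Mt2 had 4. At least 1 core stood in 25.7% of the 32817 windows, and all of the 9 genes but Slc39a14 matched a window.

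The importer genes had 2 summits each, a number reached by 51.1% of genes. At Slc39a14 (ENSMUSG00000022094.15, chromosome 14, 70303469 to 70351425, minus strand) the stronger lay in an intron at 70336611, 2.41 kb upstream of an internal start, with 143 (rank 2111), 92.2 in replicate 1 and 48.2 in replicate 2. The other lay 2.15 kb upstream of the gene with 43.0 (23.5 and 17.8). The conservative list held 3 further weak intron peaks that the optimal list did not hold. Those of 25.1 and 7.49 had their summits 442 and 185 bases from a start, and that of 16.0 lay farther away. The count for Slc39a14 was thus 5 in the conservative list, and it was 4 among the highest peaks of replicate 2 alone and 3 among those of replicate 1 alone.

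At Slc39a8 (ENSMUSG00000053897.15, chromosome 3, 135825279 to 135888572, plus strand) both summits lay in introns. The stronger was 17.8 kb downstream of the nearest start with 81.9 (rank 4687), 54.3 in replicate 1 and 25.3 in replicate 2. The other was 2.17 kb downstream with 45.0 (27.2 and 15.6). Among the highest peaks of replicate 1 alone the count for Slc39a8 was 3. In the optimal list neither importer had a summit within 1 kb of a start.

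Motif letters were then counted around the summits. GATA forms, which the blood factor GATA1 and the liver factor GATA4 recognise, stood within 50 bases of 23 of the 38 summits (60.5%), against 40.3% of all summits in the list. They stood at 19 of the 23 summits near Mtf1 and the transporter genes (82.6%) and at 4 of the 15 near the metallothionein genes (26.7%). MRE cores stood at 6 of the 38 (15.8%), against 6.44% of all summits, 3 near the metallothionein genes and 3 elsewhere. These shares are descriptions of small numbers of windows.

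The windows of the main peaks near the transporters and Mtf1 show these letters and are printed as 101 bases centred on the summit, on the plus strand, with capitals as before. In order, they lie at chr1:185472529-185472629, chr1:185454600-185454700, chr4:124774577-124774677, chr14:70353528-70353628, chr14:70336561-70336661 and chr3:135843839-135843939.
Slc30a10, 17.7 kb downstream, signal value 239: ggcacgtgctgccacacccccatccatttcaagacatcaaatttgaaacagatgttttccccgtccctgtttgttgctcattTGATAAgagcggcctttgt
Slc30a10, promoter, signal value 200: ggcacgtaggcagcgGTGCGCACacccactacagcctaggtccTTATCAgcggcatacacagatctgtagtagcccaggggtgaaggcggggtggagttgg
Mtf1, 27.5 kb upstream in Inpp5b, signal value 205: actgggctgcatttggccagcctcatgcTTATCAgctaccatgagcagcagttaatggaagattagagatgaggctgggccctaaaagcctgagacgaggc
Slc39a14, 2.15 kb upstream, signal value 43.0: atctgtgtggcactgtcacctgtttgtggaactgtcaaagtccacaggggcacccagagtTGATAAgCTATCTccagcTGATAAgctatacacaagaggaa
Slc39a14, intron, signal value 143: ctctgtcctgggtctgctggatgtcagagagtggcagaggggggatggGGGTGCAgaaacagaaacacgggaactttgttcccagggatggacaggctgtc
Slc39a8, intron, signal value 81.9: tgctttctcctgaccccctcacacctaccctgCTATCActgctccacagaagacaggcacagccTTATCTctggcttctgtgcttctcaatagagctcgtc

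The Slc30a10 promoter window held both kinds of match, an MRE core that reads on both strands and 1 GATA form. The window 2.15 kb upstream of Slc39a14 held 3 GATA forms and that in Slc39a8 held 2, whereas the Slc39a14 intron window held 1 MRE core and no GATA form. Among the other motifs searched, CCACCC, the letters of KLF factors, stood at 5 summits (13.2%, against 9.60% of all), and TGACNNNGC, the antioxidant response element, stood at 3 (7.89%, against 5.58%). The glucocorticoid response element, searched as its palindromic consensus, stood at 2 summits (5.26%, against 1.58% of all), both in the metallothionein cluster, at the Mt1 promoter and 1.12 kb upstream of Mt2. TTCNNNGAA, the form bound by STAT factors, stood at 0 of 38, against 4.95% of all summits.

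Both replicate lists held a peak for each of the 38 summits, counted by an overlap of at least 1 base. That is 100% (95% Clopper-Pearson interval 90.7 to 100, for the counting of peaks alone), against 95.7% of all optimal peaks. The optimal list was made from these replicates and their lists are unthresholded, so a share near 100% was largely built in. Some neighbouring summits shared the same match, so neither the interval nor the rho below is over 38 separate matches. For 14 summits more than 1 replicate peak overlapped and the highest was used. The median distance from a summit to that of its match was 12.0 bases in replicate 1 and 18.5 in replicate 2. The replicates' values kept a like order over the 38 peaks (Spearman's rho 0.90, across peaks of the same libraries).

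Replicate 1 had the larger values at these peaks as it did across the list. The log2 ratio of replicate 1 to replicate 2 had a median of 0.92 with an SD of 0.59 over the 38 peaks, and 0.95 with an SD of 0.65 over all matched peaks. At 3 of the 38 replicate 2 was the higher, as at 5.37% of all matched peaks: the peak of 25.9 downstream of Mt1, that of 27.8 in Inpp5b and that of 18.7 upstream of Slc30a1. None of these 3 was in the conservative list, which held 30 of the 38 (78.9%, against 74.4% of all optimal peaks). The 8 it did not hold had signal values from 12.0 to 27.8.

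**Figure D3:**
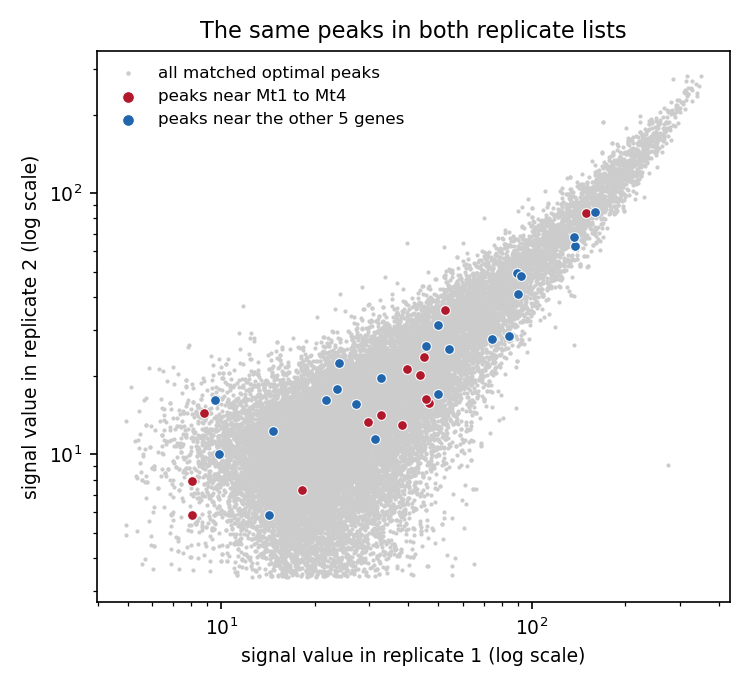
Each point is 1 peak of the optimal list at its signal value in replicate 1 (horizontal, log scale) and replicate 2 (vertical, log scale). Grey points are all matched peaks, red those near Mt1 to Mt4 and blue those near the other 5 genes, and the coloured points lie within the grey cloud with the same lean toward replicate 1. Peaks that share a replicate match fall on the same point.

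The other zinc transporter genes were set beside these as a list of 20. Of these, 16 had a summit within 50 kb (80.0%, against 65.9% of all genes), 12 within 10 kb (60.0%, against 41.0%) and 6 within 1 kb (30.0%, against 23.8%). The median of their strongest summits was 65.5, against 68.3 over all protein-coding genes with a summit and 230 over the 9 genes, 4 of which share 1 peak. The highest were Slc30a9 with 553 (rank 19; 316 in replicate 1 and 236 in replicate 2), Slc39a11 with 236, Slc39a10 with 145 and Slc39a13 with 123. For Slc30a9, Slc39a11 and Slc39a13 that summit lay nearer to another gene, Tmem33, Fam104a and Rapsn in that order. The peak of Slc39a10, an importer gene, lay 0.487 kb downstream of its own start.

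Of the 20, those with no summit within 50 kb were Slc30a2, Slc30a7, Slc39a6 and Slc39a12, with the nearest at 52.5, 55.3, 351 and 75.5 kb. Metallothioneins also bind copper, and of 12 copper handling genes all 12 had a summit within 50 kb and 9 within 10 kb (75.0%, against 41.0% of all genes), with a median strongest value of 103. The highest were Cox17 (360, nearest to Popdc2), Cox11 (283, nearest to Tom1l1), Atp7a (176, nearest to Atp7a itself) and Commd1 (162, nearest to Zrsr1). Atp7a encodes a copper-exporting ATPase, and Cox17 and Cox11 encode copper chaperones of cytochrome oxidase. Strong peaks within 50 kb were thus found near genes of all 3 lists, and for 6 of the 8 named above outside the 9 genes the summit was nearer to a gene outside the list.

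**Figure D4:**
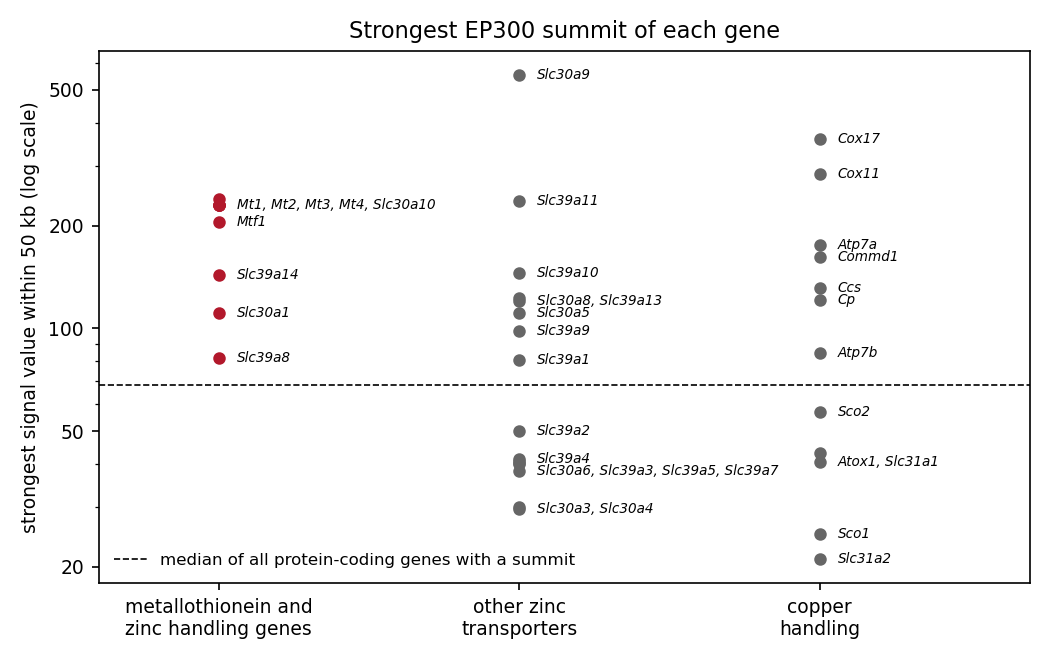
Each point is the strongest signal value within 50 kb of a gene's starts (log scale), for the 9 genes, the 16 other zinc transporter genes with a summit and the 12 copper handling genes, and points with nearly equal values share a label. The dashed line is the median of all protein-coding genes with a summit, 68.3. All 9 genes stand above the line, and both other lists have genes on either side of it.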

How the data were processed

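ChIP-seq peak lists of EP300 in newborn mouse liver, 5 in all, were used as deposited on mm10. Per the file headers and the descriptions deposited with them, the authors called peaks from alignments of ChIP and control reads, 1 list per replicate and 1 on both together, and made 2 IDR lists (optimal and conservative) from these. No aligner, caller, IDR threshold or version is named there. The signal value is the authors' score per peak, deposited with no stated scale. The members and gene lists were chosen with earlier results of these data known.

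From these, the summit (peak start plus the deposited offset) was placed on GENCODE M21. Of 26883 optimal peaks, 39 on other sequences were left out. A peak was matched to a replicate by an overlap of 1 base. All 9 genes and their summits are named, with each summit's nearest gene, and of each other list the 4 genes with the strongest summit and those without one. Motifs were searched on both strands with overlapping matches counted, and RefSeq promoters came from GRCm38.p6. No test of groups was made, since there is 1 group. Python 3.11.15, NumPy 2.4.6 and SciPy 1.17.1 were used, and placing was tested on simulated data. The alternatives were another list, threshold, distance, match rule, start set and motif window.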

Additional observations from a re-analysis of the deposited data

How the results depend on the processing

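The number of the 9 genes with a summit within 50 kb was 9 under each alternative but the distance of 10 kb, where it was 7. At 10 kb the distinct summits fell to 21 from 38 and the peaks shared by Mt1 to Mt4 to 0 from 11, and with the strongest 50% of optimal peaks the shared peaks numbered 6. Using 1 replicate's highest peaks alone gave 36 to 37 summits and 9 shared peaks. The share of summits matched in both replicates was 84.2% with a reciprocal overlap of 50% and 76.3% with the highest peaks of each replicate only. For these 2 shares no value over all peaks is given. The highest peaks of replicate 1 alone matched 30 of the 38 summits, against 85.9% of all optimal peaks. Those of replicate 2 alone matched 33, against 76.4%. With the longer element TGCACNCGG or TGCGCNCGG, 2.63% of windows held a match (0.261% of all optimal windows). With 100 bases on each side of the summit 28.9% held a core (12.2% of all). Under the other alternatives the MRE share ran from 17.6% to 24.3%, with no share over all peaks given beside it. No paired analysis was possible because there is only 1 group. Signal values carry no read depth, so a place without a peak is not shown to be without EP300.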
